A study of Homo sapiens with 2 samples.

Results

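Genes of the cell surface and its matrix were followed across the 2 libraries: the glypicans GPC3, GPC1, GPC4 and GPC6, the syndecans SDC1, SDC2 and SDC4, the matrix proteoglycans versican (VCAN) and biglycan (BGN), and podoplanin (PDPN). They are 10 named genes, of which 9 were counted among the 30796 genes of the table. GPC6 was not analysed here. They had been picked because earlier results on these same counts showed GPC3, VCAN and PDPN to be far apart between the lines, so the differences between lines are given as a description, with no test.

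The study profiled single cells of MDAMB468 and of CAL51, both established human lines labelled as triple-negative breast cancer, by Drop-seq. In this assay each cell shares a droplet with a bead, and its mRNA is tagged at the 3′ end with the bead's barcode and with a molecular identifier (UMI) that lets each captured molecule be counted once. The labels give no treatment, and each line is 1 library, so no value below has a replicate check. The MDAMB468 library held 306 barcodes with 5501900 UMIs and a median of 10016.5 UMIs per barcode. The CAL51 library held 1346 barcodes with 16223444 UMIs and a median of 8635, after 31 barcodes whose sequence also occurred under the MDAMB468 prefix were left out. Satellite barcodes, which differ by 1 base from a barcode at least 5 times as deep, made up 64 of the MDAMB468 and 7 of the CAL51 barcodes and were kept unless stated. Intervals throughout are at the 95% level and express counting error, nothing else.

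Both lines were looked at on 8 mammary epithelial markers, whose summed level was 5372 CPM (UMIs scaled to 1000000 UMIs of the line) in MDAMB468 and 2799 CPM in CAL51. Of the 8, 6 were 2-fold or more higher in MDAMB468, with KRT7 furthest (5243 and 0 UMIs). Of the others, 1 was under 2-fold, and KRT18 was 2.80-fold higher in CAL51. ESR1 had 3 and 0 UMIs and PGR 1 and 1, in the order MDAMB468 and CAL51, and ERBB2 had 39 and 262. The 4 endothelial and 3 immune markers analysed summed to 1.09 and 0.545 CPM in MDAMB468 and to 0.555 and 0.616 CPM in CAL51. The 8 fibroblast and mural markers analysed summed to 15.3 CPM in MDAMB468 and 111 CPM in CAL51, and of the 6 with at least 20 UMIs, 4 were 2-fold or more higher in CAL51 and 2 in MDAMB468. COL1A2 had 0 and 863 UMIs, RGS5 11 and 735, FAP 45 and 0, and DCN 1 in each line. The summed level of these markers moves with GPC3, VCAN and PDPN between the lines, and its part in that difference was not tested.

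Proteoglycans are core proteins that carry long sulfated sugar chains. Glypicans are held on the outer membrane by a glycosylphosphatidylinositol (GPI) anchor and syndecans span the membrane; both carry mainly heparan sulfate, which binds growth factors such as FGFs, Wnts and BMPs and shapes how their receptors are engaged. Versican is a large chondroitin sulfate proteoglycan that binds hyaluronan in loose matrix, and biglycan is a small leucine-rich proteoglycan of the matrix. Podoplanin is a mucin-like membrane glycoprotein, known from lymphatic endothelium, alveolar type I cells and invasive tumour edges, whose short tail binds ezrin and moesin.

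Promoter windows are shown for VCAN and PDPN, which had the most UMIs in CAL51 among the genes with a window, and for SDC4, which differed in the opposite direction. Each is the 250 bases before a RefSeq start on GRCh38.p14, read 5′ to 3′ along the gene's strand. The RefSeq start need not be the start of the gene span given below. The VCAN and PDPN windows lie inside their spans and the SDC4 window just before its span, so matches are compared at unlike positions. Capitals mark matches to GGGCGG (the GC box bound by Sp1-type factors) or TATAAA on either strand. The windows are chr5:83471494-83471743 (+) for VCAN, chr1:13583507-13583756 (+) for PDPN, the first of its 3 windows, and chr20:45348425-45348674 (-) for SDC4.
VCAN: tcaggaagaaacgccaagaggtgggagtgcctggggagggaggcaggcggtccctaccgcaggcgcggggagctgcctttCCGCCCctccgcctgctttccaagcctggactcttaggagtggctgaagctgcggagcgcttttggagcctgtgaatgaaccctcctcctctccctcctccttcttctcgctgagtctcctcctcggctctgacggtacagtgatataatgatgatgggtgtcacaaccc
PDPN: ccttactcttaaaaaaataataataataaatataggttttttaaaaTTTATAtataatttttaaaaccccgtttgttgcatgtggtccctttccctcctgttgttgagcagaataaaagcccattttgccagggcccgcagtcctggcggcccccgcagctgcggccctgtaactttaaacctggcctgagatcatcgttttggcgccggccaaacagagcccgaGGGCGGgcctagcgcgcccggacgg
SDC4: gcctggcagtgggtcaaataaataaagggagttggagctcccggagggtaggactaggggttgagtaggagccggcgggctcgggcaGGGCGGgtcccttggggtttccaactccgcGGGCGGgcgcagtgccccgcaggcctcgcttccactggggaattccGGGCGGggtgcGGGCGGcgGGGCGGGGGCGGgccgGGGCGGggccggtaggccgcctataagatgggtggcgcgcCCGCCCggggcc

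The SDC4 window held 8 matches to GGGCGG, some of them adjoining, against 1 each in the VCAN and PDPN windows. The number of matches did not follow the direction of the difference: the windows of BGN, GPC1 and GPC4, all higher in CAL51, held 5, 4 and 2, and each of the 2 windows of SDC1, higher in MDAMB468, held 1. Of the 35116 RefSeq windows of this length, 42.6% held the motif. The PDPN window also held TATAAA on the reverse strand, with its first base 204 bases before the start, and 10.7% of all windows held that motif on either strand. GC content was 60.8% for VCAN, 48.8% for PDPN and 73.6% for SDC4, with a median of 58% over all windows. The CCAAT box, held by 32.0% of all windows, had no match in these 3 windows on either strand. The E-box CAGGTG, held by 17.5% of windows, and the AP-1 motif TGANTCA, held by 6.57%, had none either. Matches describe the letters alone.

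GPC3, VCAN and PDPN were almost confined to CAL51, SDC2, GPC4 and GPC1 were present in both lines and higher in CAL51, and SDC4 was higher in MDAMB468. Counted on log2(CPM + 1) over genes with at least 20 UMIs, 7 of the 9 genes were 2-fold or more higher in CAL51, where 18.6% of all 15347 such genes were, and 1 was 2-fold or more higher in MDAMB468, where 15.8% were. The median log2 difference (MDAMB468 minus CAL51) of the 9 was -1.84, beside -0.13 over all such genes. GPC3, VCAN and PDPN passed 100-fold on this scale, as did 0.28% of all such genes. Because the genes had been chosen on this contrast, nothing further is read from these counts.

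**Figure D1:**
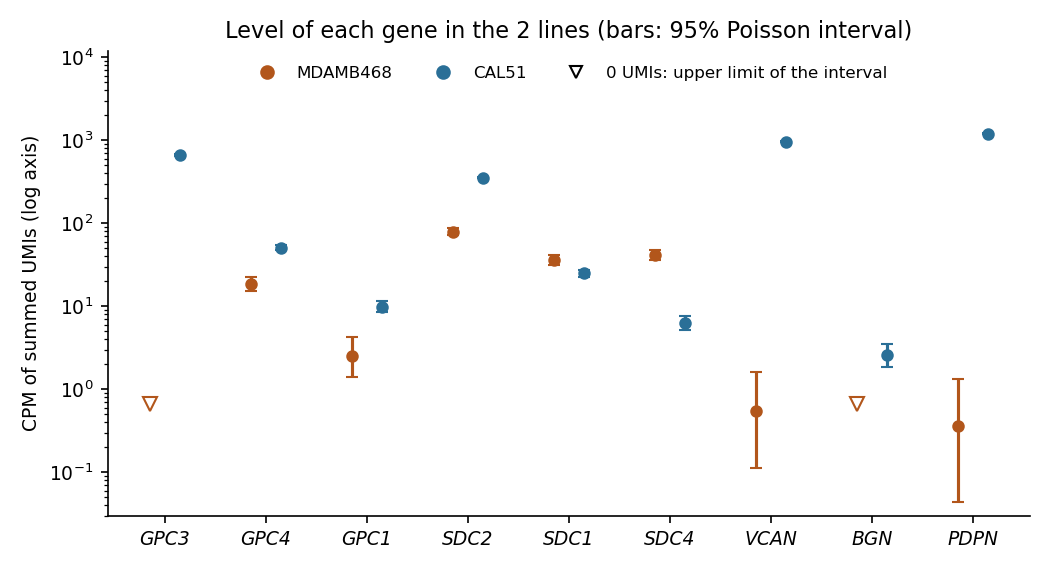
Level of each of the 9 genes in MDAMB468 and CAL51 as CPM of summed UMIs on a log axis, with 95% Poisson intervals; open triangles mark genes with 0 UMIs at the upper limit of their interval. GPC3, VCAN and PDPN stand at 667 to 1193 CPM in CAL51 and under 1 CPM in MDAMB468, and SDC4 is the gene with the clearest excess in MDAMB468.

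Among the glypicans, GPC3 (ENSG00000147257; GRCh38, chromosome X, 133535745 to 133985895, minus strand), an oncofetal glypican that binds Wnt and hedgehog ligands, had 0 UMIs in MDAMB468 and 10814 in CAL51. Its level in CAL51 was 667 CPM (interval 654 to 679). It overlaps a processed pseudogene on the opposite strand, RPS24P19, which had 264 and 164 UMIs. Against a floor of 3 counts in the MDAMB468 library it was at least 1222-fold higher in CAL51. GPC4 (ENSG00000076716; chromosome X, 133300103 to 133415490, minus strand), its neighbour on the chromosome, was seen in both lines. MDAMB468 held 102 UMIs of it, or 18.5 CPM (15.1 to 22.5), and CAL51 held 825, or 50.9 CPM (47.4 to 54.4). The excess in CAL51 was 2.74-fold (2.23 to 3.40).

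GPC1 (ENSG00000063660; chromosome 2, 240435671 to 240468078), a glypican that binds FGF2, was low in both lines. MDAMB468 held 14 UMIs of it (2.54 CPM) and CAL51 161 (9.92 CPM), an excess of 3.90-fold in CAL51 (2.26 to 7.29). With a pseudocount of 10 CPM its log2 difference of -1.62 became -0.67, under 2-fold. The other glypicans stood lower still: GPC2 had 20 and 32 UMIs, a ratio of 1.84 in favour of MDAMB468 whose interval (0.999 to 3.32) included equality, and GPC5 had 0 and 28 UMIs, at least 3.17-fold higher in CAL51.

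The make-up of the glypican family differed accordingly between the lines. In MDAMB468 the 5 glypicans analysed gave 136 UMIs, of which GPC4 made up 75% (interval 66.9% to 82.0%), GPC2 14.7% and GPC1 10.3%. In CAL51 they gave 11860 UMIs, of which GPC3 made up 91.2% (interval 90.7% to 91.7%) and GPC4 6.96% (interval 6.50% to 7.43%). Summed, the family stood at 24.7 CPM in MDAMB468 and 731 CPM in CAL51. These are shares of UMIs in 3′ libraries, in which a transcript is counted from its end whatever its length.

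Among the syndecans, SDC2 (ENSG00000169439; chromosome 8, 96493351 to 96611780), the syndecan typical of mesenchymal cells, was counted 438 times in MDAMB468, or at 79.6 CPM (72.3 to 87.4), and 5779 times in CAL51, or at 356 CPM (347 to 366). Its excess in CAL51 was 4.47-fold (4.06 to 4.94). SDC1 (ENSG00000115884; chromosome 2, 20200797 to 20225433), the main syndecan of epithelia, was counted 199 times in MDAMB468, or at 36.2 CPM (31.3 to 41.6), and 403 times in CAL51, or at 24.8 CPM (22.5 to 27.4). Its 1.46-fold excess in MDAMB468 (interval 1.22 to 1.73) was larger than counting error but under 2-fold.

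SDC4 (ENSG00000124145; chromosome 20, 45325288 to 45348424), a syndecan of focal adhesions, was counted 229 times in MDAMB468, or at 41.6 CPM (36.4 to 47.4), and 103 times in CAL51, or at 6.35 CPM (5.18 to 7.70). Its excess in MDAMB468 was 6.56-fold (5.17 to 8.35). One MDAMB468 barcode alone held 40 of the 229 UMIs. Without the barcode richest in the gene in each line, the log2 difference of SDC4 was 2.34 in place of 2.54. SDC3, the remaining syndecan, had 10 and 123 UMIs, an excess in CAL51 of 4.17-fold (2.19 to 8.92).

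The 4 syndecans gave 876 UMIs in MDAMB468, split between SDC2 with 50% (interval 46.6% to 53.4%), SDC4 with 26.1% (interval 23.3% to 29.2%) and SDC1 with 22.7% (interval 19.98% to 25.6%). In CAL51 they gave 6408 UMIs, of which SDC2 made up 90.2% (interval 89.4% to 90.9%), SDC1 6.29% and SDC4 1.61%. MDAMB468 thus had a mixed set of syndecan transcripts and CAL51 mostly SDC2.

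Of the matrix proteoglycans, VCAN (ENSG00000038427; chromosome 5, 83471465 to 83582303) had 3 UMIs in MDAMB468, each in another barcode, and 15682 in CAL51 (967 CPM, interval 952 to 982). Its ratio was 1773 (606 to 8597). The span of an antisense gene, VCAN-AS1, overlaps that of VCAN and had 0 and 104 UMIs. Whether the transcripts of both genes share bases was not tested. Reads from any shared bases cannot be told apart unless strand was used in counting, which no source used here states. BGN (ENSG00000182492; chromosome X, 153494939 to 153509554) had 0 UMIs in MDAMB468 and 42 in CAL51 (2.59 CPM), at least 4.75-fold higher there, and it overlaps HAUS7 on the opposite strand (184 and 297 UMIs). The 42 UMIs of BGN came from 20 barcodes, and 3 of these held 19 of them.

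PDPN (ENSG00000162493; chromosome 1, 13583465 to 13617957) had 2 UMIs in MDAMB468 and 19361 in CAL51 (1193 CPM, interval 1177 to 1210), which puts its ratio at 3283 (909 to 27111). The intervals of the PDPN and VCAN ratios overlap widely, so neither ratio can be called the larger.

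Barcodes were thinned to 2500 UMIs each, which every barcode reached, so that detection could be compared at equal depth. PDPN was found in 1218 of 1346 CAL51 barcodes (90.5%, interval 88.8% to 92.0%) and in 1 of 306 MDAMB468 barcodes (0.327%, interval 0.00827% to 1.81%). VCAN was found in 76.4% of CAL51 barcodes (interval 74.1% to 78.7%) and GPC3 in 67.9% (interval 65.3% to 70.4%). In MDAMB468, VCAN and GPC3 were found in 0 of 306 barcodes at this depth (interval 0% to 1.20%). Before thinning the CAL51 shares were 98.9% for PDPN, 92.1% for VCAN and 86.9% for GPC3, against 0.654%, 0.98% and 0% in MDAMB468. A UMI in a barcode can also come from free RNA in the droplet, whose share within the CAL51 library was not tested.

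SDC2 was found at equal depth in 56.6% of CAL51 barcodes (interval 53.9% to 59.3%) and 22.9% of MDAMB468 barcodes (interval 18.3% to 28.0%). GPC4 was found in 9.58% (interval 8.06% to 11.3%) and 4.25% (interval 2.28% to 7.16%). SDC4 had the reverse order, with 1.34% in CAL51 (interval 0.794% to 2.11%) and 6.54% in MDAMB468 (interval 4.04% to 9.91%). For SDC1 the intervals overlapped, with 6.17% in CAL51 (4.94% to 7.59%) and 9.15% in MDAMB468 (6.17% to 13.0%), and for GPC1 they overlapped too, at 2.23% and 0.98%. Without satellite barcodes the MDAMB468 shares were 18.6% for SDC2 and 4.96% for SDC4. Before thinning, SDC2 had a UMI in 88.4% of CAL51 and 52.9% of MDAMB468 barcodes, and SDC4 in 5.72% and 30.1%.

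**Figure D2:**
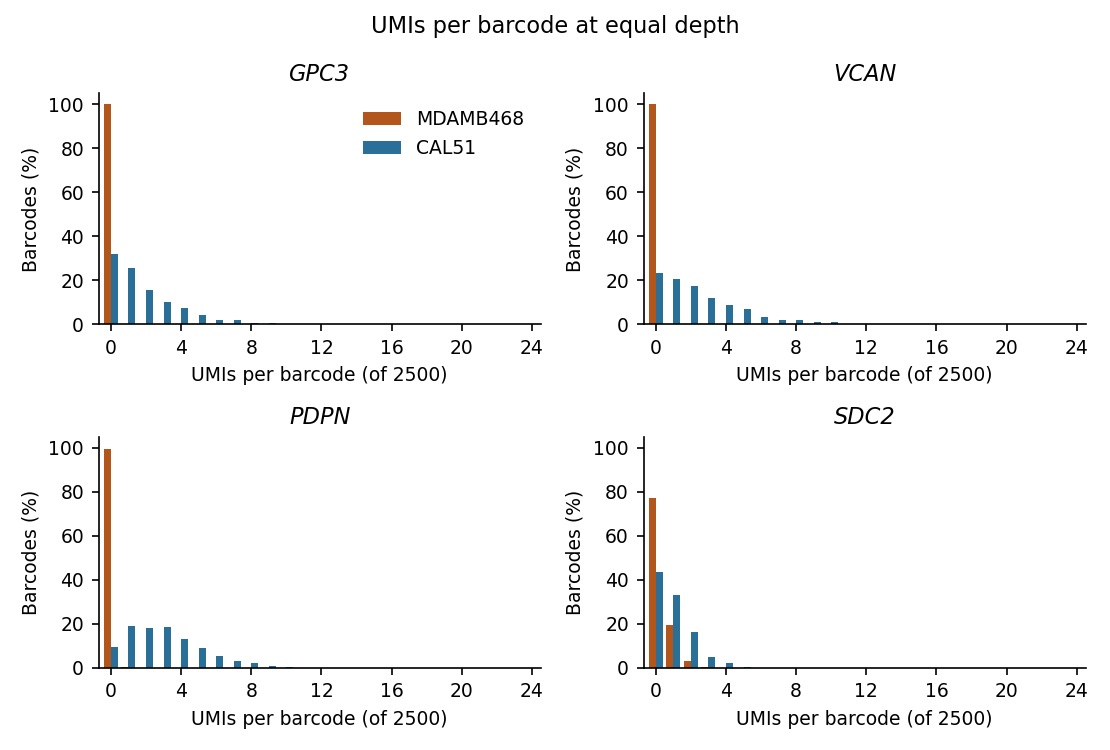
Share of barcodes (percent) by the number of UMIs of GPC3, VCAN, PDPN and SDC2 after thinning every barcode to 2500 UMIs, for MDAMB468 (306 barcodes) and CAL51 (1346 barcodes). In CAL51, PDPN spreads around a median of 3 UMIs with 9.51% of barcodes at 0, while GPC3 has 32.1% and VCAN 23.6% of barcodes at 0 and both have long tails.

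Of the 3 genes near absent from MDAMB468, PDPN was spread more evenly over CAL51 barcodes than GPC3 and VCAN were. The Fano factor, the variance over the mean of UMIs per barcode, is 1 where molecules are scattered over barcodes by counting alone. At 2500 UMIs it was 2.51 for VCAN (mean 2.43, median 2 and highest 23 UMIs) and 2.19 for GPC3 (mean 1.76, median 1, highest 13). It was 1.57 for PDPN, although PDPN had the highest mean (2.99 UMIs, median 3, highest 13). The tenth of barcodes richest in each gene held 35.2% of the GPC3 UMIs, 32.6% of the VCAN UMIs and 24.99% of the PDPN UMIs.

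At 2500 UMIs SDC2 had a Fano factor of 1.12 in CAL51 (mean 0.898) and 1.03 in MDAMB468 (mean 0.265). GPC4, SDC1, GPC1 and SDC4 lay between 0.978 and 1.12 in CAL51, at means of 0.107 UMIs or less, where little spread can be seen. BGN, at a mean of 0.00966 UMIs, had a Fano factor of 1.61, and its UMIs lay in few barcodes. SDC4 had a Fano factor of 1.34 in MDAMB468 (mean 0.0784), which rests on few barcodes: 17 held 1 UMI, 2 held 2 and 1 held 3. The Fano factor of GPC3 moved with depth, to 1.41 at 1000 UMIs and 3.37 at 5000 UMIs, and that of SDC2 in CAL51 was 1.31 at 5000 UMIs. The Fano factor also grows with a gene's mean. Where the higher value goes with the higher mean, as for VCAN over GPC3 and PDPN over SDC2, it does not rank the genes. PDPN had a lower Fano factor than GPC3 and VCAN at a higher mean, also at 5000 UMIs (2.02, beside 3.37 and 3.68). By the coefficient of variation GPC3 (1.12) stood above VCAN (1.02) and PDPN (0.725). That order is the reverse of their means (1.76, 2.43 and 2.99 UMIs). Counting alone lowers the coefficient as the mean rises, so the coefficient does not rank the genes.

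GPC3 and VCAN tended to be high in the same CAL51 barcodes, and PDPN did not follow them. Over 1346 barcodes thinned to 2500 UMIs, Pearson's r of log(1 + UMIs) was 0.32 for GPC3 with VCAN, and it was 0.41 over the 1071 barcodes that reached 5000 UMIs. VCAN was found in 81.9% of barcodes with a GPC3 UMI and in 64.8% of those without. For GPC3 with PDPN r was -0.07 at 2500 UMIs and -0.14 at 5000 UMIs, and for VCAN with PDPN it was -0.01 and -0.08. At 2500 UMIs the other 7 pairs among GPC3, VCAN, PDPN, SDC2 and GPC4 lay between -0.03 and 0.07. The barcodes share 1 culture and 1 library, so r is a description and carries no p.

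Mean VCAN was higher at each step over barcodes grouped by GPC3. It was 1.53 UMIs in the 432 barcodes with 0 GPC3 UMIs, 2.25 with 1, 2.81 with 2, 3.13 with 3 to 4, and 4.09 in the 129 barcodes with 5 or more. PDPN went from 3.08 to 2.56 UMIs between the same end groups, and SDC2 from 0.947 to 0.86.

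**Figure D3:**
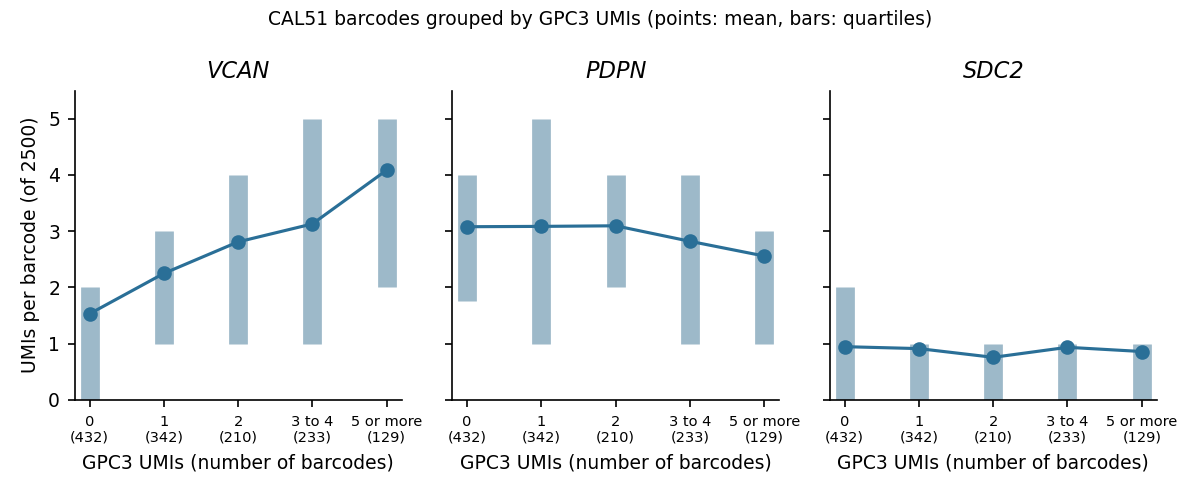
UMIs of VCAN, PDPN and SDC2 per CAL51 barcode (thinned to 2500 UMIs) in groups of barcodes by their GPC3 UMIs; points are means, bars span the quartiles, and the number of barcodes stands in brackets. Mean VCAN goes from 1.53 to 4.09 UMIs from left to right, while PDPN and SDC2 stay flat or drop slightly.

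Over all 4943 other genes with at least 500 UMIs in CAL51, leaving out mitochondrial and ribosomal protein genes, the gene most like GPC3 by r was VCAN (0.32), followed by the heparin-binding growth factor MDK (0.27) and the non-muscle myosin MYH10 (0.27). The genes most like VCAN were GPC3 (0.32), MYH10 (0.25) and the transcription factor SOX4 (0.24). The genes most like PDPN were the glutathione transferase GSTP1 (0.20), SYNGR2 (0.13) and MYL11 (0.12). For GPC4 they were COL2A1 (0.14), CREB3L2 and JAG1 (0.12 each), and for SDC2 TPM1, C12orf75 and ZWILCH (0.10 each). The values for PDPN, GPC4 and SDC2 are weak in counts this sparse and are no more than a ranking. The median r over all genes lay between -0.00327 and 0.00553 for these 5 genes.

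To see where in the CAL51 population the genes stood, CAL51 barcodes were clustered without the 10 genes and without all pathway genes below, which gave 4 clusters. Cluster 0 (493 barcodes) was led by COL2A1, NTS and ITM2A, cluster 1 (344) by H2AC6, BTG2 and CDKN1A, cluster 2 (310) by mitotic genes such as PIF1, PSRC1 and PLK1, and cluster 3 (199) by TSTD1, COL1A2 and CD24. Median depth was 9010, 7476, 11229 and 7473 UMIs in clusters 0 to 3.

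GPC3 was lowest in cluster 3, at 206 CPM (interval 187 to 226), and highest in cluster 0, at 884 CPM (interval 860 to 909), a 4.30-fold range, with 666 CPM in cluster 1 and 603 CPM in cluster 2. VCAN was also lowest in cluster 3, at 429 CPM (interval 401 to 458), and stood at 1082, 1074 and 974 CPM in clusters 0, 1 and 2. At equal depth GPC3 was found in 34.2% of cluster 3 barcodes (interval 27.6% to 41.2%) and in 69.0% to 79.3% of those of the other clusters. For VCAN these shares were 56.8% (interval 49.6% to 63.8%) and 77.7% to 81.7%. Clusters 1 and 3, with nearly equal median depths, thus differed in both genes.

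PDPN and SDC2 were more even. PDPN ran from 1047 CPM in cluster 0 (interval 1021 to 1074) to 1378 CPM in cluster 1 (interval 1341 to 1416), with 1200 CPM in cluster 3 where GPC3 and VCAN were lowest. SDC2 was highest in cluster 3, at 452 CPM (interval 424 to 482), and stood at 363, 305 and 348 CPM in clusters 0, 1 and 2. GPC4 was highest in cluster 0, as GPC3 was, at 65.7 CPM (interval 59.2 to 72.7), and stood at 38.9 to 45.4 CPM in clusters 1 to 3, whose intervals overlapped. GPC1 was highest in cluster 3, at 16.5 CPM (34 UMIs, interval 11.5 to 23.1), against 7.54 to 11.03 CPM elsewhere. That interval overlapped those of cluster 1 (5.92 to 12.07) and cluster 2 (8.21 to 14.5). Cells of 1 library are no replicates, so these levels have no test.

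**Figure D4:**
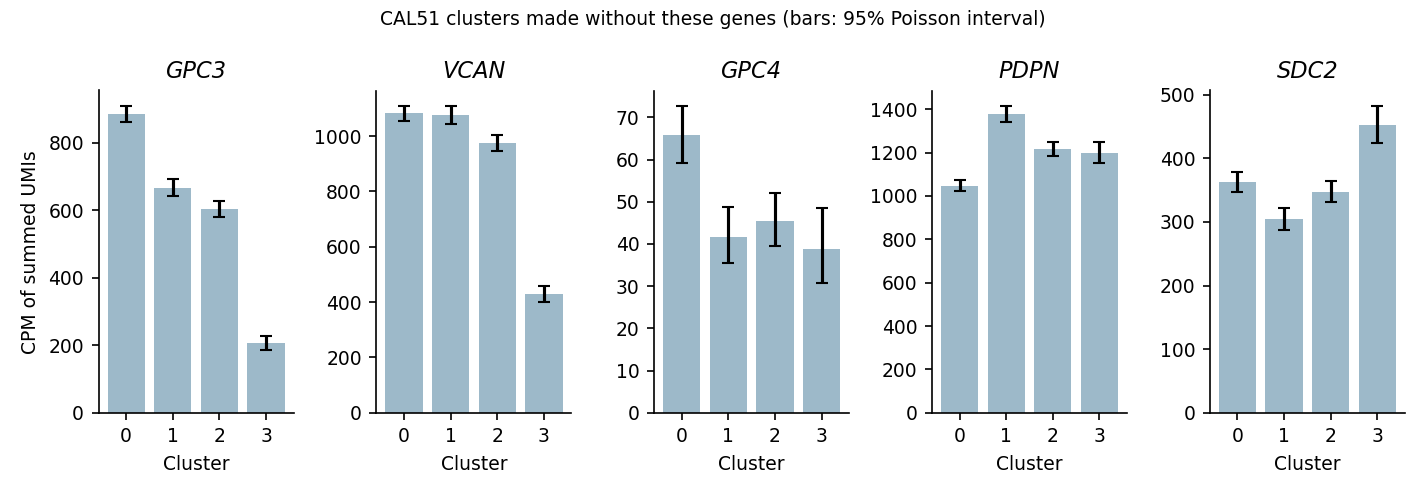
CPM of summed UMIs (bars start at 0) of GPC3, VCAN, GPC4, PDPN and SDC2 in the 4 CAL51 clusters made without these genes, with 95% Poisson intervals. GPC3 and VCAN drop to 206 and 429 CPM in cluster 3, where SDC2 is highest and PDPN is near its level in cluster 2.

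Levels were also taken in shallow and deep barcodes apart. In the shallower and deeper 673 barcodes of CAL51, GPC3 stood at 764 and 638 CPM, VCAN at 1034 and 946 CPM, PDPN at 1218 and 1186 CPM, and SDC2 at 372 and 351 CPM. SDC4 in MDAMB468 stood at 27.6 CPM (21 UMIs) in the shallower and 43.9 CPM (208 UMIs) in the deeper 153 barcodes. The barcode with 40 SDC4 UMIs, which had 68673 UMIs in all, was among the deeper ones.

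The position of the genes was not used in choosing them. Protein-coding genes within 1 Mb were therefore compared by log2 difference (MDAMB468 minus CAL51) where they had at least 20 UMIs. Around GPC3 and GPC4, which lie 120255 bases apart, HS6ST2, a heparan sulfate 6-O-sulfotransferase, had 15 and 497 UMIs (-3.09). PABIR3 (-2.17) and PLAC1 (-1.06) were also 2-fold or more higher in CAL51, and CCDC160 (-0.96), PABIR2 (-0.88), HPRT1 (-0.26), PHF6 (-0.14) and MOSPD1 (0.45) were under 2-fold. MBNL3 was higher in MDAMB468 (1.61). The widely used housekeeping gene HPRT1 in the same stretch stood at 65.1 and 78.0 CPM. The 9 neighbours of GPC3, GPC4 included, had a median of -0.96, with 4 of them 2-fold or more higher in CAL51 and 0 in MDAMB468.

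VCAN has as its nearest neighbour HAPLN1, the link protein that ties versican to hyaluronan, 55502 bases away, which had 1 and 59 UMIs (ratio 20.01, interval 3.45 to 804). The other 2 neighbours, TMEM167A (-1.62) and XRCC4 (-1.14), named after their values were seen, were also higher in CAL51. Of the 4 neighbours of PDPN, 0 were 2-fold or more higher in CAL51, and their log2 differences ran from 0.01 to 1.31. The 25 neighbours of SDC4 had a median of -0.85, with 9 of them 2-fold or more higher in CAL51 and 2 in MDAMB468. Those 2, named after their values were seen, were the protease inhibitor genes SLPI (876 and 11 UMIs, 6.58) and PI3 (944 and 0 UMIs, 7.43). Of the 36 neighbours of BGN, 19 were 2-fold or more higher in MDAMB468 and 3 in CAL51, with a median of 1.04. Over all genes with at least 20 UMIs, 18.6% were 2-fold or more higher in CAL51 and 15.8% in MDAMB468, with a median of -0.13.

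The genes that make, anchor, cut and read these proteoglycans were taken from 16 lists, with 135 genes at 20 UMIs or more. Of these, 54 were 2-fold or more higher in CAL51 (18.6% of all genes), 20 were 2-fold or more higher in MDAMB468 (15.8% of all genes), and the median log2 difference was -0.71, beside -0.13 over all genes.

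Other core proteins followed the CAL51 side in most cases. Of 5 other heparan sulfate core proteins, 4 were 2-fold or more higher in CAL51 and 0 in MDAMB468. TGFBR3 (betaglycan) had 5 and 283 UMIs, an excess in CAL51 of 19.2-fold (8.13 to 59.6), while AGRN had 15 and 37 (ratio 1.20 in favour of MDAMB468, interval 0.61 to 2.23). Of 3 chondroitin sulfate carriers, CSPG5 had 1 and 50 UMIs and was higher in CAL51, as was APLP2, and CD44, the hyaluronan receptor, was 5.62-fold higher in MDAMB468 (interval 5.18 to 6.09). No small leucine-rich proteoglycan beside BGN reached 20 UMIs, among 6 analysed.

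Among the chain-building enzymes, only those of the linker sugar had a median log2 difference (-0.04) near that of all genes (-0.13). The median was -0.43 for enzymes of chondroitin and dermatan sulfate and -0.82 for those of the heparan sulfate chain. Genes supplying sulfate and sugar donors had a median further toward CAL51 than any of these lists. Of 6 enzymes of the linker sugar, 2 were 2-fold or more higher in CAL51 and 0 in MDAMB468, from B4GALT7 (-1.16) to B3GAT3 (0.55). Of 12 enzymes of the heparan sulfate chain, 4 were 2-fold or more higher in CAL51 and 1 in MDAMB468. HS6ST2 was lowest, 11.2-fold higher in CAL51 (interval 6.75 to 20.2), and HS3ST1 highest, with 16 and 7 UMIs (1.45). Of 14 enzymes of chondroitin and dermatan sulfate, 4 were higher in CAL51, with DSEL (1 and 62 UMIs) lowest, and 2 in MDAMB468, with CSGALNACT1 (23 and 1 UMIs) highest. Of 9 genes supplying sulfate and sugar donors, 5 were higher in CAL51 and 0 in MDAMB468, from the sulfate transporter SLC26A2 (-1.97) to SLC35B3 (0.29).

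Among genes that edit, cut or anchor the proteoglycans, more were higher in CAL51 than in MDAMB468 in each list. Of 9 genes of heparan sulfate removal, 4 were higher in CAL51 and 1 in MDAMB468, and the extracellular sulfatases stood at opposite ends. SULF1 had 0 and 62 UMIs (at least 7.01-fold higher in CAL51) and SULF2 had 31 and 17 (5.38-fold higher in MDAMB468, interval 2.89 to 10.4). Of 10 sheddases and core protein proteases, 5 were higher in CAL51 and 3 in MDAMB468. MMP7, a protease known to shed syndecans, had 520 and 0 UMIs, at least 511-fold higher in MDAMB468, and ADAMTS15, a versican-cutting protease, had 0 and 69. Of 6 hyaluronan genes, 3 were higher in CAL51 and 0 in MDAMB468, from HAPLN1 (-1.97) to HYAL3 (0.45). Of 9 genes of GPI anchor synthesis, 3 were higher in CAL51 and 0 in MDAMB468, from PGAP1 (-1.57) to PIGK (0.45).

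Partner proteins of syndecans and podoplanin included genes on both sides. Of 8 cytoplasmic partners of syndecans, 1 was higher in CAL51, SDCBP (syntenin; 2.30-fold, interval 1.97 to 2.71), and 2 in MDAMB468, with TIAM1 highest (74 and 12 UMIs; 18.2-fold, interval 9.81 to 36.8). Of 10 podoplanin partners, 1 was higher in CAL51, ezrin (EZR; 3.62-fold, interval 3.40 to 3.86), and 4 in MDAMB468, with the tetraspanin CD82 highest (760 and 20 UMIs; 112-fold, interval 72.0 to 184).

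Heparan sulfate ligands were split evenly, with 4 of 12 higher in each line. FGF18 was counted 2 and 1250 times, with CAL51 higher at a ratio of 212 (58.6 to 1752), and BMP7 58 and 2 times, with MDAMB468 higher at a ratio of 85.5 (22.6 to 723). Of 19 receptors, 10 were higher in CAL51 and 2 in MDAMB468. ROBO2, a Slit receptor, had 0 and 1002 UMIs, at least 113-fold higher in CAL51, and KDR, a VEGF receptor, had 102 and 2, a ratio of 150.4 in favour of MDAMB468 (interval 40.6 to 1259).

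**Figure D5:**
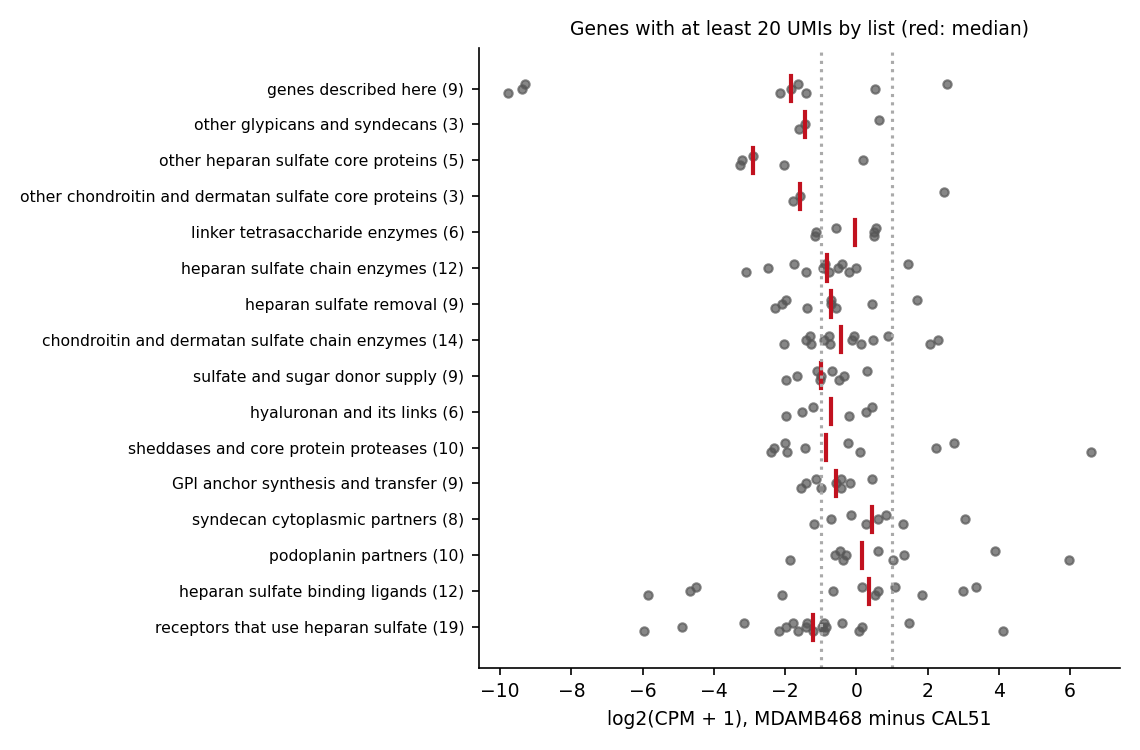
Log2 difference of CPM + 1 (MDAMB468 minus CAL51) of each gene with at least 20 UMIs, by list, with the number of genes in brackets; red lines are medians and dotted lines mark 2-fold. The genes described here include 3 points below -9, while the lists of chain-building enzymes have medians between -0.82 and -0.04 and most of their points within 2-fold.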

How the data were processed

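The authors deposited a matrix of UMI counts, whole numbers for each gene in each barcode. STARsolo is named in the submitters' processing notes; no source used here gives the genome build, annotation, strand setting or barcode selection. The deposited barcode names gave the line, and the deposited gene identifiers, coded as other text, were matched to symbols (23687 of 30796). Positions came from GENCODE release 29 on GRCh38 (29416 matched).

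Counts were summed per line and scaled to CPM. Line differences are log2(CPM + 1), MDAMB468 minus CAL51, which understates differences of low genes. Poisson, conditional fold and Clopper-Pearson intervals are exact 95% intervals. A gene with 0 UMIs was bounded by a floor of 3 counts per library, a rule that leaves out counting error in the other line. No test across samples was possible with 1 library per line. Clusters used scanpy 1.11.5 (2000 variable genes, 30 principal components, 15 neighbours, Leiden resolution 0.5). No doublet was removed. edgeR 4.0.16 gave TMM factors alone. The calls were tested on simulated data.

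Genes, lists and tests were chosen with earlier results of these data known. Named are the 10 genes, the other glypicans and syndecans, and the highest and lowest gene of each list with at least 20 UMIs. Also named are the 3 genes most like each gene with at least 500 UMIs, and the neighbours of GPC3 and GPC4. All markers were to be named, but only some of the epithelial, fibroblast and mural markers are. Planned protein features were not computed here.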

Additional observations from a re-analysis of the deposited data

Results flagged for a closer look

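Barcodes outside the comparison of the lines held UMIs of the described genes. The 31 CAL51-labelled barcodes whose sequence also occurs in the MDAMB468 library, 135240 UMIs in all, had been left out of CAL51. They are listed here where they held more UMIs than the floor of 3 counts, there being no control library. PDPN had 44 UMIs in them (325 CPM, interval 236 to 437), VCAN 33 (244 CPM, interval 168 to 343), SDC2 27 (199.6 CPM, interval 132 to 290.5) and GPC3 15 (111 CPM, interval 62.1 to 183). These 4 levels lay below those of the other CAL51 barcodes and above those of MDAMB468. SDC4 had 7 UMIs (51.8 CPM, interval 20.8 to 107), near its level of 41.6 CPM in MDAMB468 and above its 6.35 CPM in CAL51. GPC4 had 4 UMIs (29.6 CPM, interval 8.06 to 75.7), between both lines.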

How the results depend on the processing

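Each of the 9 log2 differences kept its sign under all 9 alternatives run for it, and 68 of the 81 values stayed within the counting interval. Of the 13 that did not, 10 came from the pseudocount, which moved GPC3 from -12.70 at 0.1 CPM to -6.08 at 10 CPM and brought GPC1 (-0.67) and BGN (-0.33) under 2-fold at 10 CPM. The scalings shifted the median over all genes by at most 0.12 in size (-0.12 with TMM). With a pseudocount of 10 CPM, 1146 genes were 2-fold or more higher in CAL51 (2847 as reported) and 1046 in MDAMB468 (2429 as reported), and of the pathway genes 23 (54 as reported) and 9 (20 as reported). Requiring 100 UMIs left 1337 genes and 8 pathway genes higher in MDAMB468. Shares of barcodes with a UMI depend on depth by construction, and 27 of 54 alternatives lay outside the interval. The r of GPC3 with PDPN became -0.14 and that of VCAN with PDPN -0.08 at 5000 UMIs. At a Leiden resolution of 1, with 9 clusters, the range of GPC3 over clusters widened to 9.04-fold; at 0.2 a single cluster remained and gave no range. Leaving out the barcode richest in each gene was added after the data were seen. No paired analysis was possible because each line has 1 library.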

Other observations

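One CAL51 barcode with 73498 UMIs, the tenth deepest of the line, held the highest count of 5 of the 9 genes. It had 214 VCAN UMIs (2912 CPM, interval 2535 to 3329), 103 GPC3 UMIs (1401 CPM, interval 1144 to 1700), 16 GPC4 UMIs (218 CPM, interval 124 to 354), 11 of the 42 BGN UMIs of the line (149.7 CPM, interval 74.7 to 268) and 5 SDC4 UMIs (68.0 CPM, interval 22.1 to 159). Its PDPN level was below that of the line, at 571 CPM (interval 412 to 772) against 1193 CPM, its SDC2 level (367 CPM, interval 242 to 534) included that of the line, and it had 0 UMIs of SDC1 and GPC1. It was not a satellite barcode. This barcode was singled out once its values were known, and the r of GPC3 with VCAN was 0.32 without it. In MDAMB468, the barcode with 40 of the 229 SDC4 UMIs also held 1 of the 3 VCAN UMIs of that line.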
